A study of Mus musculus with 4 samples.

Results

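The 9 genes described here encode transcription factors that act in the osteoblast lineage: Runx2, Sp7, Dlx3, Dlx5, Msx1, Msx2, Twist1, Twist2 and Cbfb. They were listed by name and found on the arrays by matching the accession of each non-control probe to a RefSeq table, which gave 13 probes for the 9 genes, out of 56605 probes and 22911 named genes in all. The samples were MC3T3-E1 cells, a clonal osteoblastic line derived from mouse calvaria and labelled osteoblasts, in 4 groups with 1 Agilent one-colour array each. These were cells given Miglustat at 50 µM, cells given D-PDMP at 10 µM, cells given D-PPMP at 1.0 µM, and Control cells, for which the labels give no agent. All groups were replated 4 days after treatment began and harvested 24 h later. The 3 compounds inhibit glucosylceramide synthase, the enzyme that adds glucose to ceramide. Miglustat is an iminosugar. D-PDMP and D-PPMP are ceramide analogues with a shared morpholino head, and D-PPMP carries the longer acyl chain. The doses differ, so no difference between inhibitors was computed, and where the arrays are put in order this describes 4 arrays at unequal doses.

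Runx2 is the runt-domain factor without which osteoblasts do not form, and it binds DNA as a pair with Cbfb, a subunit that does not touch DNA itself. Sp7, also called osterix, is a zinc finger factor that acts downstream of Runx2 in the commitment of preosteoblasts. Dlx3 and Dlx5 are homeodomain factors induced by bone morphogenetic proteins that activate osteoblast genes, Msx1 and Msx2 are related homeodomain factors that often repress, and Twist1 and Twist2 are basic helix-loop-helix factors that hold Runx2 back in immature cells.

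Levels are log2 of the scanner's processed signal minus the array's 75th percentile, which was a signal of 191 with Miglustat, 189 with D-PDMP, 189 with D-PPMP and 183 in Control. Signals quoted below are before this scaling, and ratios are after it. A probe counts as measured when the scanner software marks it well above background. Each group has 1 array, so a difference has no replicate check and was not tested, and all 3 comparisons share the Control array. The error given after a ratio (±) is the scanner software's own error of a spot carried to the log2 ratio, with a median of 0.204 over all genes. It covers measurement on the array and not differences between cultures. Among bright probes spotted 10 times (mean signals of at least 50, 278 or 279 probes an array), spots of the same array differed by less. The SD of their log2 signal had medians of 0.0316 with Miglustat, 0.0295 with D-PDMP, 0.0283 with D-PPMP and 0.0365 in Control. These SDs cover neither differences between arrays nor those between cultures. All 4 arrays were on 1 slide, each group in its own position, and the effect of position and that of the treatment cannot be told apart. The share of probes well above background was 60.2% with Miglustat, 60.8% with D-PDMP, 62.4% with D-PPMP and 57.4% in Control.

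All 9 factors were measured on every array, on 12 of their 13 probes, and most stayed near Control. Of their 27 ratios over Control, taking each gene's brightest probe, 23 lay within 0.2 on the log2 scale. The exceptions were Sp7 and Dlx5 with Miglustat, and Sp7 and Twist2 with D-PPMP. With Miglustat, 1 of 9 was at least 1.5-fold higher than Control (Sp7) and 0 were at least 1.5-fold lower, where 1.57% of the 14171 genes measured on both arrays were that much higher and 1.11% that much lower. With D-PDMP 0 of 9 passed in either direction, against 1.34% of 14154 genes higher and 1.2% lower. With D-PPMP 0 of 9 passed, against 2.27% of 14200 genes higher and 1.18% lower. A count of 1 among 9 genes gives no share to set against these. At 2-fold 0 of 9 passed on their brightest probe in any comparison. The shares of all genes at least 2-fold higher were 0.212%, 0.155% and 0.303% for Miglustat, D-PDMP and D-PPMP, and those at least 2-fold lower were 0.176%, 0.17% and 0.204%.

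The medians over the 9 factors were -0.00 (Miglustat), 0.09 (D-PDMP) and -0.05 (D-PPMP), beside -0.02, -0.00 and -0.01 over all genes measured. Between 7 and 9 of the 9 lay within 0.2 of Control, beside 77.4%, 78.5% and 74.6% of all genes with Miglustat, D-PDMP and D-PPMP. The spread of a factor over the 4 arrays had a median of 0.14, against 0.197 for the 14003 genes measured on all arrays. It was under 0.2 for 6 factors, between 0.2 and 0.5 for Dlx5 and Twist2, and 1.18 for Sp7. Of the 14003 genes 0.857% spread as far as Sp7, and 14.6% as far as Twist2. These shares are over genes of all levels. The Sp7 probe was a weak one, and no share among genes of its level was computed.

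**Figure D1:**
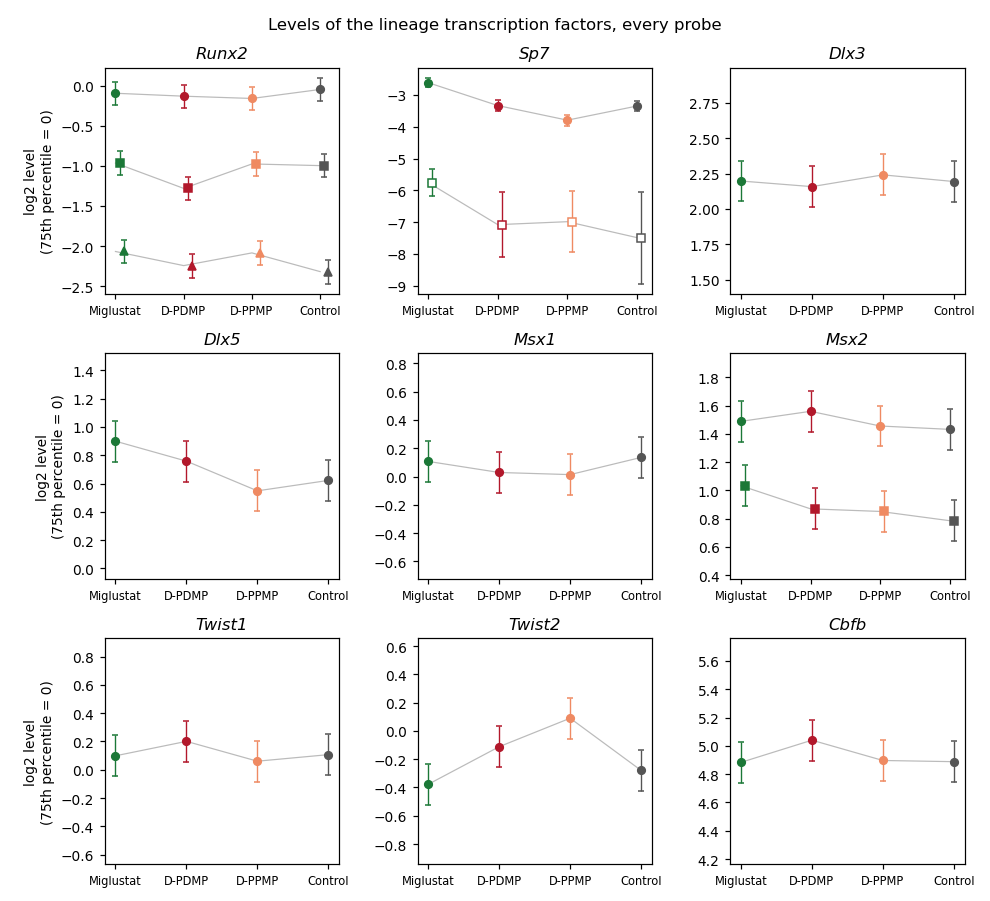
Log2 level of each factor on the 4 arrays (75th percentile of the array at 0, y axis), with Miglustat, D-PDMP and D-PPMP left of Control. Each point is 1 probe on 1 array, circles, squares and triangles are the brightest and further probes of a gene, error bars are the scanner's error, and open symbols are not well above background. Sp7 spreads over 1.18 on its brightest probe, and 6 of the 9 factors spread by less than 0.2.

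The promoters of 6 of the 9 factors were in the RefSeq sequence table (GRCm38.p6), as windows of 250 bases before to 50 bases after the gene's start. Those of Sp7, Dlx3 and Dlx5 were not analysed here. The Runx2 window is shown because it carries the binding letters of its own product, the Twist2 window because Twist2 is the member with a window that stood farthest from Control, and the Msx2 window because it alone of the 6 carries the letters searched for homeodomain factors. Capitals mark the motif ACCACA (Runx motif) in Runx2, GGGCGG (GC box) in Twist2 and TAATTA (homeodomain core) in Msx2, each searched on both strands, so that CCGCCC is a GC box on the other strand. The windows are chr17:44814578-44814877 on the minus strand, chr1:91801211-91801510 on the plus strand and chr13:53472731-53473030 on the minus strand, printed 5′ to 3′ on the gene's strand.
Runx2: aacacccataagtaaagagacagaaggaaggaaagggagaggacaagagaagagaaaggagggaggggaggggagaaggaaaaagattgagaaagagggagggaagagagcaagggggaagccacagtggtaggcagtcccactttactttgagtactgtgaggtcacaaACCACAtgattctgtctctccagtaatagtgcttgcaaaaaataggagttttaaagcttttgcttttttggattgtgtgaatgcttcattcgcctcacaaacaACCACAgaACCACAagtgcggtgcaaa
Twist2: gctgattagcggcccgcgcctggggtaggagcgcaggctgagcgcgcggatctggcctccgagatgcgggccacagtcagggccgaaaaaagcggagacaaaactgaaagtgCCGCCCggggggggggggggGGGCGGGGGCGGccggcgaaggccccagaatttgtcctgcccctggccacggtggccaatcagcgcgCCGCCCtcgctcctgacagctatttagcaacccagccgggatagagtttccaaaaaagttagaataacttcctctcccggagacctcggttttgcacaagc
Msx2: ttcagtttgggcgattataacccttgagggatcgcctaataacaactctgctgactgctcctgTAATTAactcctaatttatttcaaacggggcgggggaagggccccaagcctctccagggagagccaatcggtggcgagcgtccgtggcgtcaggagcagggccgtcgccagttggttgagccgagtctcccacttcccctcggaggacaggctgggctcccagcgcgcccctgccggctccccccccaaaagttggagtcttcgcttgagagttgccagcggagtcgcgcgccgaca

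The Runx2 window held 3 copies of ACCACA, beginning 80 bases before and 23 and 31 bases after the start. Of the 32851 windows in the table, 16.8% held at least 1 copy and 0.183% at least 3. Of the 6 members' windows, that of Runx2 alone held this motif. Its 2 matches to the E-box CANNTG, the letters bound by Twist proteins with their partners, both overlap copies of ACCACA. The E-box was in 3 of the 6 windows (Runx2, Msx1 and Msx2), against 72.3% of all windows. TAATTA was in the Msx2 window alone, 187 bases before the start, and in 5.29% of all windows. The GC box was in 5 of the 6 windows, all but that of Runx2, with 4 copies each in Twist2 and Cbfb, and in 35.7% of all windows. The window of Runx2 was 45.3% G and C, and those of the other 5 lay between 61% and 70%. These are matches of letters, and the arrays did not measure binding.

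Runx2 (chromosome 17) was read by 3 probes. The brightest, designed to a noncoding transcript record of the gene, gave signals of 179 under Miglustat, 173 under D-PDMP and 169 under D-PPMP, against 177 in Control. The ratios over Control were -0.05, -0.08 and -0.11 (each ± 0.20), so that the 4 arrays lay within 0.11 of each other. The other 2 probes were designed to a coding transcript. The brighter of these gave 97.8, 77.9 and 95.8 with Miglustat, D-PDMP and D-PPMP, against 91.5 in Control, with D-PDMP lowest at a ratio of -0.28. The third probe gave 45.5, 40.0 and 44.5, against 36.6 in Control, with ratios of 0.25, 0.08 and 0.23 (each ± 0.21). The 3 probes thus placed the arrays in different orders, and no ratio of any of them exceeded 2 scanner errors.

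Cbfb (chromosome 8), the partner that steadies Runx2 on DNA, had 1 probe. Its signals were 5633 under Miglustat, 6230 under D-PDMP and 5617 under D-PPMP, against 5405 in Control. After scaling, D-PDMP was highest at 0.15 ± 0.20 and the other 2 inhibitors lay at -0.00 and 0.01. The steps between neighbouring arrays in this order were all smaller than the scanner's error.

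Sp7 (chromosome 15) varied most. Its brightest probe gave signals of 31.2 under Miglustat, 18.8 under D-PDMP and 13.6 under D-PPMP, against 17.9 in Control. Miglustat was highest, D-PDMP and Control were nearly level, and D-PPMP was lowest. The ratio with Miglustat was 0.74 ± 0.22, or 1.66-fold higher than Control, and it was the only ratio of the 9 factors beyond 2 scanner errors. With D-PDMP the ratio was 0.02 ± 0.23, and with D-PPMP it was -0.44 ± 0.24, or 1.36-fold lower than Control.

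The Sp7 probe was a weak one, brighter than only 12.3% of the genes measured on all arrays. Weak probes passed 1.5-fold more often: among the lowest 25% by mean level, 4.66% of 3669 genes were that much higher with Miglustat and 3.43% lower. With D-PDMP these shares were 4.63% and 3.59%, and with D-PPMP 7.71% and 3.03%. At or beyond the Sp7 ratio with Miglustat were 102 of all 14171 genes, or 0.72%. At or below its ratio with D-PPMP were 358 of 14200 genes, or 2.52%. For probes spotted 10 times with mean signals under 50 that were well above background (10 to 12 probes an array), the SD of the log2 signal between spots had medians of 0.211, 0.148 and 0.19 with Miglustat, D-PDMP and D-PPMP, and 0.174 in Control. The other Sp7 probe was not well above background on any array. It read 3.54 under Miglustat, 1.40 under D-PDMP and 1.49 under D-PPMP, against 1.02 in Control, signals below the lowest marked well above background (4.61 to 4.83), so no ratio is given.

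The sign of Sp7 with Miglustat held under all 9 alternatives tried, but several of these could not change it. The 2 filters on dim probes and the mean of probes well above background return the main value by construction. The authors' table, from the same processed signals, gave 0.73. The size of the ratio did not hold throughout. It was 0.24 after normexp background correction, under the 1.5-fold line, but this setting adds an offset of 50, more than the Sp7 signals themselves, which by construction draws the ratio of so weak a probe towards 0. It was 1.23 when both probes were averaged, which takes in the probe that was not well above background on any array. The D-PPMP value passed 1.5-fold lower under quantile and cyclic loess normalization, at -0.62 and -0.64, was -0.08 with that normexp offset, and turned to 0.03 when the unmeasured probe was averaged in.

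Some marker sums, like Sp7, were highest with Miglustat and lowest with D-PPMP, but they had D-PDMP below Control and not level with it. The other marker sums, given further below, did not share these ends. The summed scaled signal of 7 chondrocyte markers was, as for Sp7, highest with Miglustat and lowest with D-PPMP, at 109 under Miglustat, 79.6 under D-PDMP and 76.6 under D-PPMP, against 88.4 in Control. Of the 7, 5 were measured on each array, and Acan and Col10a1 on none. Most of this sum was Col2a1, at ratios of 0.39, -0.28 and -0.35, and Sox6 came in the same order at 0.53, -0.11 and -0.40. The other measured markers did not. Sox9, the master factor of that lineage, was at -0.03, 0.05 and -0.06, Sox5 at 0.02, 0.19 and 0.17, and Comp at 0.25, -0.42 and 0.09. The sum of 6 osteoclast and macrophage markers was 16.9, 14.4 and 13.5, against 16.6 in Control, so that Miglustat was nearly level with Control. Of them 4, 3, 4 and 4 were measured, and Ptprc and Adgre1 on no array. Most of this sum was Ctsk, at ratios of 0.03, -0.20 and -0.32. Csf1r was at 0.05, -0.24 and -0.23, while Cd68 was at -0.00, 0.09 and 0.24. The part of these markers in the Sp7 result was not tested.

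**Figure D2:**
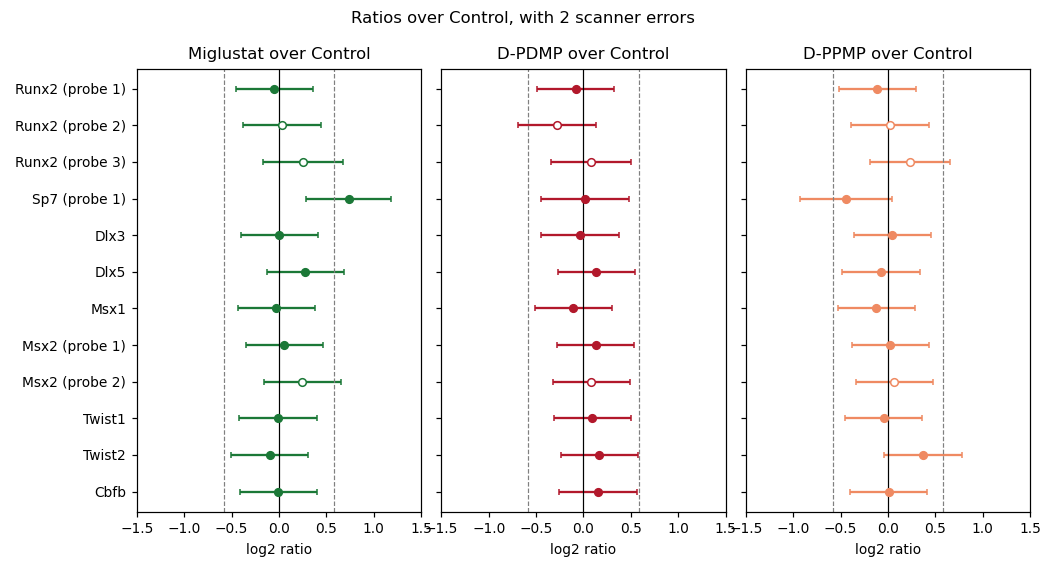
Log2 ratio over Control (x axis) of the 12 probes well above background on all arrays, 1 panel for each inhibitor. Filled points are the brightest probe of a gene, open points further probes, bars are 2 scanner errors, and dashed lines mark 1.5-fold. The Sp7 bar with Miglustat, at 0.74, is the only one that does not reach 0.

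Among the activating homeodomain factors, Dlx5 (chromosome 6) gave signals of 356 under Miglustat, 320 under D-PDMP and 276 under D-PPMP, against 281 in Control. Miglustat was highest at a ratio of 0.28 ± 0.20, D-PDMP stood at 0.14, and D-PPMP at -0.07 was nearly level with Control. The Miglustat value was 0.13 with normexp and between 0.28 and 0.29 otherwise, where the filters and averages return the main value of its 1 probe. Dlx6, the next coding gene to Dlx5 in the annotation, gave 23.1, 24.0 and 21.1 with the inhibitors in the same order, against 20.4 in Control. Its ratios of 0.11, 0.18 and -0.00 (each ± 0.23) were all within 1 scanner error of Control.

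Dlx3 (chromosome 11) had the narrowest spread of the 9 factors. It gave 876 under Miglustat, 845 under D-PDMP and 891 under D-PPMP, against 835 in Control, a spread of 0.08 after scaling. Its ratios were 0.00, -0.04 and 0.05. Its coding neighbour Dlx4 was near the background, with signals of 6.50, 2.44 and 6.45 against 7.15 in Control, and was not well above background with D-PDMP.

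Msx2 (chromosome 13), a repressor in cranial osteoprogenitors, was read by 2 probes. The brighter gave 535 under Miglustat, 558 under D-PDMP and 517 under D-PPMP, against 492 in Control. The dimmer gave 391, 346 and 340, against 315 in Control. Control was lowest on both probes, but the inhibitors came in different orders. The ratios were 0.06, 0.13 and 0.02 on the brighter probe and 0.25, 0.08 and 0.07 on the dimmer, each ± 0.20.

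Msx1 (chromosome 5) lay slightly below Control with each inhibitor. Its signals were 206 under Miglustat, 193 under D-PDMP and 190 under D-PPMP, against 200.4 in Control. The ratios of -0.03, -0.11 and -0.12 were each smaller than the error of 0.20.

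Twist2 (chromosome 1) was the second most variable factor. It gave signals of 147 under Miglustat, 175 under D-PDMP and 201 under D-PPMP, against 150.4 in Control. D-PPMP was highest at 0.37 ± 0.20, or 1.29-fold, D-PDMP came next at 0.17, and Miglustat was the lowest at -0.10. At or beyond the D-PPMP ratio were 872 of 14200 genes, or 6.14%. Across the alternatives this ratio lay between 0.24 and 0.37, where the filters and averages return the main value of its 1 probe.

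Twist1 (chromosome 12), the paralog whose loss of function causes craniosynostosis in humans, did not share this order. It gave 204 under Miglustat, 218 under D-PDMP and 197 under D-PPMP, against 197 in Control. The ratios were -0.01, 0.09 and -0.05, all within 1 scanner error.

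**Figure D3:**
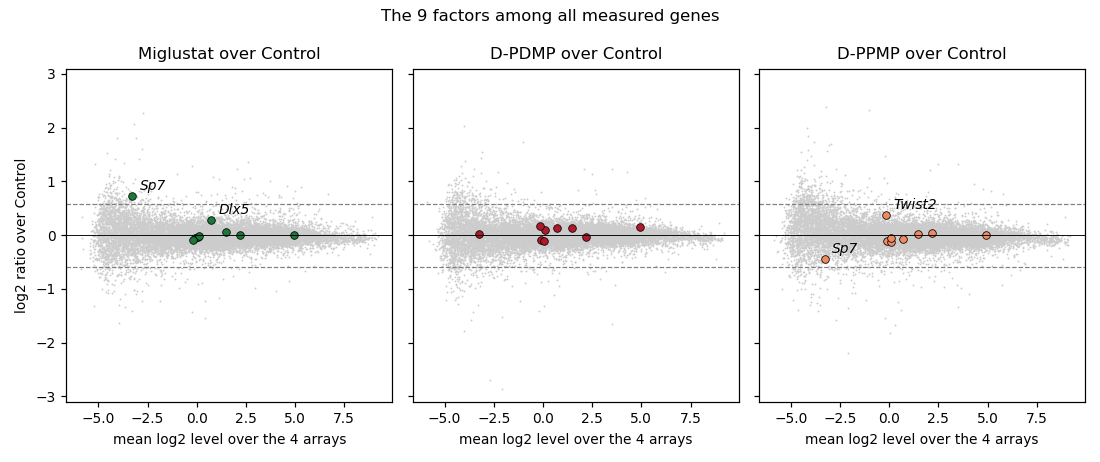
Log2 ratio over Control (y axis) against mean log2 level over the 4 arrays (x axis) for all genes measured on both arrays (grey) and the 9 factors (coloured), 1 panel for each inhibitor. Dashed lines mark 1.5-fold, and factors at least 0.2 from Control are named. Sp7 is at 0.74 with Miglustat in the region of weak probes, where the grey points spread widest.

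By a rule applied to factors that spread by at least 0.5 over the arrays, which took Sp7 alone, the genes with the closest pattern were Efhd1, a mitochondrial calcium-binding protein, Emid1, a secreted protein with an EMI domain, and Vip, a neuropeptide. Closeness is the Euclidean distance of centred log2 levels over 4 arrays among 14002 genes, and it was 0.10, 0.10 and 0.11. Efhd1 gave 57.0 under Miglustat, 33.0 under D-PDMP and 25.8 under D-PPMP, against 34.2 in Control. Emid1 gave 14.0, 9.11 and 6.64, against 8.73 in Control, and Vip gave 50.4, 27.5 and 20.4, against 27.1 in Control. These are weak probes like that of Sp7, in the region where ratios spread widest. Whether these genes are regulated together with Sp7 was not tested.

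Around these factors, 6 lists of related genes were examined. Of 12 further homeobox genes, 12, 11 and 12 were measured on both arrays with Miglustat, D-PDMP and D-PPMP, and 0 were 1.5-fold from Control in any comparison on their brightest probes, by which all list counts are made. Their medians were 0.11, -0.00 and -0.02. Dlx2, a paralog of Dlx5 and Dlx3, was at 0.24, 0.01 and 0.12. Of 23 Runx relatives, coactivators and corepressors, 22 were measured and 0 were 1.5-fold away, with medians of 0.03, 0.01 and -0.04. Within this list the Notch effectors Hes1 and Hey1 lay farthest from Control, in opposite directions with D-PPMP. Hes1 was at 0.15, 0.27 and 0.50 and Hey1 at 0.17, -0.16 and -0.50, with Hey1 on a weak probe (22.0 in Control).

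The list of E proteins, which pair with Twist, Id proteins, which take E proteins away, and other E-box factors had 12, 13 and 13 of 14 members measured. On their brightest probes 0 were 1.5-fold from Control, and the medians were 0.10, 0.02 and -0.01. Zeb2, an E-box repressor, was at 0.30, 0.17 and 0.04 on its brightest probe, but its 2 further probes ranged over 0.30 to 1.06 with Miglustat, 0.12 to 0.48 with D-PDMP and 0.05 to 0.89 with D-PPMP, so its probes disagree on the 1.5-fold line. The farthest members by brightest probe were Id2 at 0.21, 0.31 and 0.42 and Id4 at 0.10, 0.34 and 0.38. Id2 gave signals of 1110, 1175 and 1267 with Miglustat, D-PDMP and D-PPMP, against 915 in Control. The E proteins Tcf3, Tcf4 and Tcf12 lay between -0.13 and 0.15 on their brightest probes, but the further probes of Tcf12 reached -0.41 with Miglustat.

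Of 28 other transcription factors of bone formation, 24 were measured, with medians of 0.03, 0.06 and 0.08. With D-PPMP 2 of 24 were at least 1.5-fold higher and 0 lower, and with Miglustat and D-PDMP 0 passed. Among all genes measured with D-PPMP, 2.27% were that much higher and 1.18% lower, and so small a count gives no share to set against these. The oestrogen receptor gene Esr1 was read on weak probes, the brightest of its 6 at a signal of 24.1 in Control. That probe was at 0.19 with D-PPMP, and the 1 further probe measured, a dimmer one, was at 0.64. Fosl1, an AP-1 subunit that promotes bone matrix formation, gave signals of 523 under Miglustat, 772 under D-PDMP and 977 under D-PPMP, against 571 in Control, ratios of -0.19, 0.38 and 0.73. Foxc2, a forkhead factor of skeletal mesenchyme, gave 398, 566 and 664, against 423 in Control, ratios of -0.15, 0.37 and 0.60. For both genes D-PPMP was highest, D-PDMP next and Miglustat lowest.

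Textbook targets of Runx2 and Sp7 were examined as a list of 19, of which 10, 11 and 11 were measured. The medians were 0.01, -0.03 and -0.13. With Miglustat 1 of 10 was at least 1.5-fold lower and 0 higher, with D-PDMP 0 of 11 passed, and with D-PPMP 1 of 11 was lower. Among all genes measured, 1.11% were that much lower with Miglustat and 1.18% with D-PPMP. A count of 1 gives no share to set against these. The gene lower with Miglustat was Spp1, osteopontin, with signals of 5619, 10090 and 11460 with Miglustat, D-PDMP and D-PPMP, against 8514 in Control. Miglustat was lowest and D-PPMP highest. The gene lower with D-PPMP was Col5a1, a fibrillar collagen chain, at 24840, 17690 and 13830, against 21080 in Control. Miglustat was highest and D-PPMP lowest.

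The list of 26 genes of BMP, FGF and hedgehog inputs had 22 measured and medians of 0.12, -0.01 and -0.01. With Miglustat 2 of 22 were at least 1.5-fold higher and 0 lower. With D-PDMP 1 was higher and 2 lower, and with D-PPMP 1 was higher and 1 lower. Among all genes measured, 1.57%, 1.34% and 2.27% were that much higher and 1.11%, 1.2% and 1.18% lower. Counts this small give no share to set against these. Bmp4, a ligand that induces Dlx5 and Msx2, gave signals of 1840 under Miglustat, 744 under D-PDMP and 868 under D-PPMP, against 1145 in Control. Its ratios were 0.62, -0.68 and -0.45, and its other probe gave 0.68, -0.59 and -0.29. Fgf18, a growth factor of osteogenic mesenchyme, was at 0.07, -0.61 and -0.85, from signals of 359, 222 and 188 against 327 in Control. Fgf2 was above Control with all 3 inhibitors at 1.08 ± 0.30, 0.61 and 0.80, on a weak probe with signals of 17.2, 12.3 and 14.0 against 7.77 in Control.

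**Figure D4:**
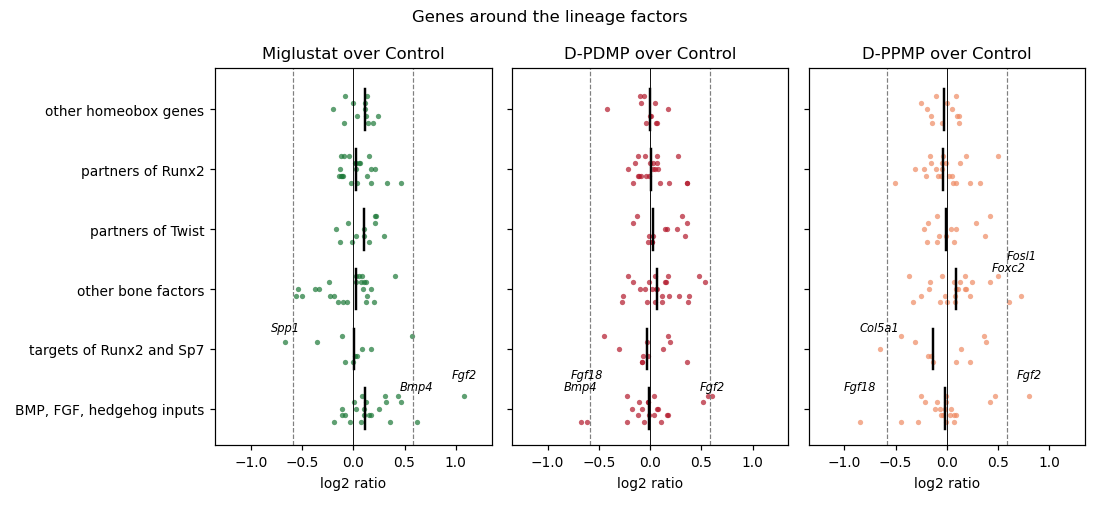
Log2 ratio over Control (x axis) of each measured gene in 6 lists around the lineage factors, 1 panel for each inhibitor. Points are genes by their brightest probe, black bars the list medians, dashed lines 1.5-fold, and genes past that line are named. By brightest probe the homeobox, Runx2 partner and Twist partner lists have no gene past 1.5-fold (a further probe of Zeb2 is at 1.06 with Miglustat), and the inputs have Fgf2, Bmp4 and Fgf18.

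The labelled cell type was checked against 9 defining markers. Col1a1, Col1a2, Sparc, Spp1, Runx2 and Sp7 were well above background on all 4 arrays. Alpl and Ibsp, markers of matrix maturation, were not on any array, and Bglap, an osteocalcin gene, was so only with D-PDMP and D-PPMP. Bglap2, the other osteocalcin gene of bone and a near-identical copy, was well above background on all 4, at weak signals of 8.69 under Miglustat, 10.5 under D-PDMP and 11.9 under D-PPMP, against 8.97 in Control, and probes of such copies may not tell them apart. The summed scaled signal of this list was 1320 under Miglustat, 1260 under D-PDMP and 1220 under D-PPMP, against 1440 in Control. It rests mostly on Col1a2, Sparc and Col1a1, the markers with the highest levels. Sparc was at ratios of -0.36, -0.45 and -0.44 on its brightest probe, but at 0.05, -0.10 and -0.24 on its other. Col1a1 was at -0.00, -0.08 and -0.13, and Col1a2 at 0.03, -0.06 and -0.18. In these bulk samples fewer cells of a type and less RNA per cell cannot be told apart.

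Of the other cell types, adipocyte markers summed to 0.853, 0.789 and 0.792 against 0.745 in Control, with Plin1 unmeasured and Adipoq measured with D-PPMP only. Osteocyte markers summed to 58.3, 52.6 and 54.6 against 58.3 in Control, with Dmp1 and Sost unmeasured and Phex not measured with Miglustat. Most of this sum was Pdpn and Fgf23, at log2 levels of 5.25 and 4.32 in Control. Tendon markers summed to 16.7, 16.8 and 16.6 against 18.8 in Control with Tnmd unmeasured, and most of this sum was Scx, at a log2 level of 4.19 in Control. Skeletal muscle markers summed to 0.0709, 0.0944 and 0.0895 against 0.0578 in Control, with Myod1, Myog and Myf5 unmeasured. Of these 5 markers 0 were measured in Control, so the Control sum is of readings near background. Des was measured with each inhibitor and Myh3 with D-PDMP and D-PPMP only, so these sums do not measure a difference from Control. Endothelial markers summed to 0.102, 0.125 and 0.126 against 0.0869 in Control, with Cdh5 and Kdr unmeasured. The measured one of these, Pecam1, was past 1.5-fold higher with D-PDMP and D-PPMP, the only such call among the markers of other cell types. It gave weak signals of 16.9 under Miglustat, 21.6 under D-PDMP and 21.7 under D-PPMP, against 13.7 in Control, at ratios of 0.23, 0.60 and 0.61 (each ± 0.24).

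**Figure D5:**
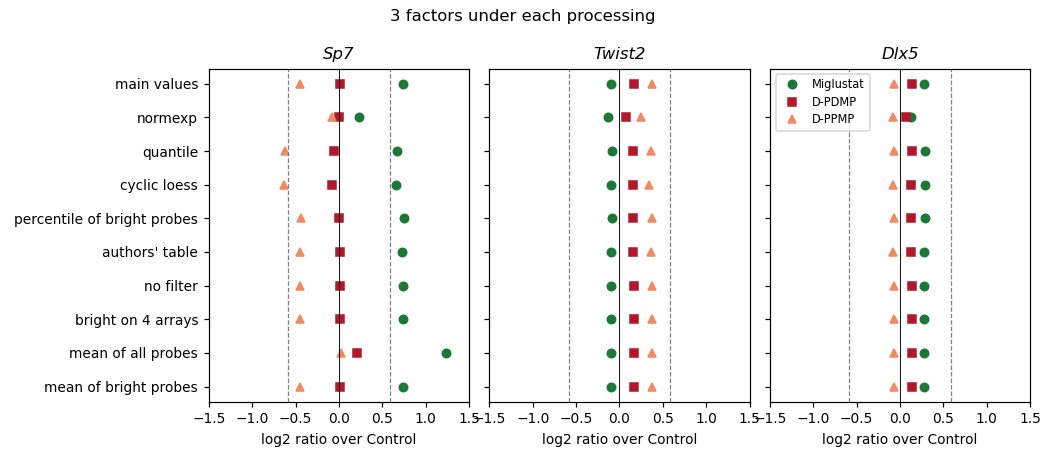
Log2 ratio over Control (x axis) of Sp7, Twist2 and Dlx5 under the main values and 9 alternatives (rows), with symbols for the inhibitors and dashed lines at 1.5-fold. Sp7 with Miglustat stays above 0 and ranges from 0.24 to 1.23, whereas Twist2 with D-PPMP stays between 0.24 and 0.37. The filters, and for Twist2 and Dlx5 also the averages, return the main value by construction.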

How the data were processed

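Scanner files of 4 arrays, 1 per group, were used. Per the file headers, the deposited intensity values are processed signals of Feature Extraction 12.1.1.1 (Agilent), after background subtraction and detrending within each array. The authors' deposited table holds log2 values that match log2 of the processed signal, floored at 1, minus the array's 75th percentile within 0.02. Its column medians were -4.0 with Miglustat, -4.0 with D-PDMP, -3.89 with D-PPMP and -4.1 in Control. Here outlier spots (66 to 85 an array) and controls were left out, and each probe took the mean log2 processed signal of its spots, less the array's 75th percentile over 56605 probes. No spot was saturated. Accessions without version matched 32994 probes (58.3%) to a RefSeq table of GRCm38.p6, used for names, chromosomes and promoter windows. The array design names mm9, so no probe coordinates are given. A gene takes its brightest probe over the 4 arrays. Other probes are printed for members, where they pass 1.5-fold, and for some genes where they differ from the brightest.

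A gene was called at 1.5-fold when well above background on both arrays. No test was made. Precision is limited by having 4 arrays. Named genes are the 9 members with every probe, list genes at least 1.5-fold from Control (at most 6 a list, or else the 2 farthest), the osteoblast markers and the 3 genes closest in pattern. Dlx6, Dlx4, the E proteins, Zeb2, Esr1, Bglap2 and the single markers of other cell types fall outside that rule and were picked after their values were seen. A gene that the rule names is not reported here. The members, the 1.5-fold rule and all lists were chosen with earlier results of these data known. Alternatives were limma 3.58.1 normexp (offset 50), quantile and cyclic loess normalization, another percentile set, the authors' log2 table, 2 filters on dim probes and 2 ways to average probes. Normexp used the median spot signal and was settled after the files were seen, since they hold no mean spot signal. The calling step was tested on simulated data.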

Additional observations from a re-analysis of the deposited data

How the results depend on the processing

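No paired analysis was possible because each group has 1 array, and none could be left out. Of the 27 ratios of the members, 19 kept their sign under all 9 alternatives. The other 8 were at most 0.11 from 0 in the main values, except Sp7 with D-PPMP at -0.44. Of 243 alternative values 239 stayed within the scanner's error of the main value, and the other 4 were those of Sp7 with Miglustat and D-PPMP under normexp and under the mean of all probes. Many of these values, and of the kept signs, could not change. All 9 members were well above background on every array, so the 2 filters return their main values. Both averages do so for the 6 members with 1 probe, and the authors' table holds nearly the same values. The count of members called with Miglustat was 0 with normexp and 0 at 2-fold, against 1 otherwise. With D-PPMP it was 1, Sp7, lower, under quantile and under cyclic loess normalization, against 0 otherwise, and with D-PDMP it was 0 throughout. For normexp its offset of 50, above the Sp7 signals, shrinks the ratios of weak probes by construction, and for quantile and cyclic loess the cause was not tested. Of all genes, 380, 359 and 489 were called at 1.5-fold with Miglustat, D-PDMP and D-PPMP, 53, 33 and 59 with normexp, and 3154, 3518 and 3815 with no filter on dim probes, which adds unmeasured genes. At 2-fold the counts were 55, 46 and 72, against 9, 6 and 14 with normexp and 1512, 1756 and 1985 with no filter, and 74 with D-PDMP and 113 with D-PPMP for the mean of all probes. The share of the 1.5-fold calls that was higher depended on the scaling. It was 58.7%, 52.6% and 65.8% in the main values, 40.9%, 30.5% and 28.7% under quantile and 43.1%, 31.5% and 28.4% after cyclic loess. Normexp gave 71.7%, 30.3% and 35.6%. The median of all measured genes stayed within 0.1 of 0 under each. Of the 21 medians of the members and the 6 related lists, 11 changed sign under at least 1 alternative, those of the members with Miglustat and D-PPMP among them. All 11 were within 0.05 of 0 in the main values except the target list with D-PPMP, at -0.13, which was 0.13 with no filter on dim probes. Sp7 is limited by a weak signal on 1 probe.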

Other observations

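Markers of other skeletal lineages differed in how they stood across the arrays. Over Control, the chondrocyte factor Sox6 was at 0.53 (Miglustat), -0.11 (D-PDMP) and -0.40 (D-PPMP). Its partner Sox5 was at 0.02, 0.19 and 0.17. Pparg, the master factor of adipocytes, was at 0.25, 0.02 and -0.07, whereas Cebpa, which acts with it, lay below Control with all 3 inhibitors at -0.45, -0.43 and -0.43. The adipocyte markers Fabp4 and Lep lay above Control, at 0.51, 0.25 and 0.05 and at 0.37, 0.36 and 0.44. These adipocyte probes were weak, with Control signals of 25.9 (Pparg), 40.1 (Cebpa), 24.1 (Fabp4) and 42.5 (Lep).

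Several factors named in the lists lay to the same side of Control with all 3 inhibitors. Sp3, a zinc finger relative of Sp7, was at 0.41 (Miglustat), 0.48 (D-PDMP) and 0.50 (D-PPMP). Tle4, a Groucho corepressor that can bind Runx factors, was at 0.33, 0.36 and 0.32, and the BMP receptor Acvr1 at 0.47, 0.52 and 0.42. The other Acvr1 probe did not share this, at -0.02, -0.03 and 0.05. Nfatc2, a calcineurin-regulated factor, was at -0.50, -0.26 and -0.25. These genes were picked after their values were seen, all 3 values of each share the Control array, and none passed 1.5-fold.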
